A study of Mus musculus with 2 samples.

Results

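The 151 genes described here encode the proteins of the cell's ribosomes. They were chosen by name: the single annotated symbol starts with Rpl, Rps, Mrpl or Mrps followed by a digit, or is Rplp0, Rplp1, Rplp2 or Rpsa, and the Rps6k kinase genes were left out. They are 151 of the 17501 genes that the platform annotation names. Of them 74 belong to the cytosolic ribosome, 46 to its large and 28 to its small subunit by symbol, and 77 to the mitochondrial ribosome, 48 to its large and 29 to its small subunit. Each was measured by 1 to 23 array probes, 235 in all, and 106 rest on 1 probe.

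RNA was studied in mouse lymphocytes cultured under Th1, Th17 or Th0 conditions, in a series on tumour-specific Th17 cells and melanoma. Each population came from a TRP-1 mouse, per the labels. In this strain the T cell receptor is directed at an antigen of melanoma, so the Th0 control carries that background too. Th1 cells are known for interferon gamma, Th17 cells for interleukin 17, and Th0 is the usual name for cells cultured without lineage-directing cytokines. Each of 2 two-colour arrays carried RNA of 1 polarized population, labelled with Cy5, and of Th0 cells, labelled with Cy3. There was 1 array for each comparison, the dyes were not swapped, and the labels do not give the age of the mice, the time in culture, any sort or the number of animals. No difference could therefore be set against a spread between samples, and no p-value is given.

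Every value is the log2 ratio of the channels as deposited, so 1 unit is a 2-fold and 0.58 units a 1.5-fold difference. The titles name the polarized population over Th0, but the table states no numerator, and all 6 lineage genes listed lay on the other side. On the Th17 array Il17a lay at −5.37, Il17f at −2.38, Il22 at −5.79 and Il23r at −1.88. Ifng lay at −2.02 and Tbx21 at −1.25 on the Th1 array. Signs are printed as deposited. As titled, a positive ratio means more of the message in the polarized than in the Th0 RNA, and with the sign turned it means less. The difference is the Th17 array's ratio minus that of the Th1 array. As titled, a negative difference stands for less of the message in Th17 cells than in Th1 cells, and for more of it if the signs of both arrays are turned. It rests on a shared Th0 RNA on both arrays, which no label gives, and it is built from the same values and is no further measurement.

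Cytosolic ribosomes make nearly all of a cell's proteins, and their proteins are needed in equal numbers, so their messages are abundant and tend to be regulated together. Most of these messages begin with a run of pyrimidines, the terminal oligopyrimidine or TOP tract, through which mTOR signalling and the protein Larp1 control their translation. Mitochondrial ribosomes are a separate machine whose proteins are encoded in the nucleus and imported, and which translate the few messages of the mitochondrial genome. T cells enlarge both systems when they leave the resting state and begin to divide.

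The start regions of 8 members show what the TOP tract looks like in genes that differed in their ratios. Each line runs from 20 bases before the annotated start of transcription to 20 bases from it, on the strand of the gene, from RefSeq on build GRCm38.p6. Capitals mark a pyrimidine run, counted from its first C no more than 5 bases before the start, so it can begin before the start and pyrimidines further upstream stay in lower case. The first 3 have the lowest and the next 3 the highest differences between the arrays among the cytosolic members with 1 promoter entry whose first transcribed base, as annotated, is a C followed by at least 4 more pyrimidines. The last 2 are mitochondrial members far from 0, which have none.
Rpl35, chr2:39005112-39005151, minus strand: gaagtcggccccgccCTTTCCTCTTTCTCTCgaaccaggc
Rps10, chr17:27635225-27635264, minus strand: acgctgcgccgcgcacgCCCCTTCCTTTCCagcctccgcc
Rps6, chr4:86857348-86857387, minus strand: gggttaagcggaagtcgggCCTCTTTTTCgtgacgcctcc
Rpl14, chr9:120571497-120571536, plus strand: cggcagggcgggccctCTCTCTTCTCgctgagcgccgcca
Rplp2, chr7:141447631-141447670, plus strand: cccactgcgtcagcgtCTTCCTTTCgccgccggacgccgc
Rps15a, chr7:118116128-118116167, minus strand: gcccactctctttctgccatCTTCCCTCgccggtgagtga
Mrps6, chr16:92058316-92058355, plus strand: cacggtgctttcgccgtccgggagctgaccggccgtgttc
Mrpl50, chr4:49521064-49521103, minus strand: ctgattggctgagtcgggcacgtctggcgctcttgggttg

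Both kinds of ribosome lay above the bulk of genes on the Th1 array, and they parted on the Th17 array. On the Th1 array the median was 0.23 over cytosolic and 0.28 over mitochondrial members, against −0.08 over all named genes. On the Th17 array the cytosolic median was −0.17 and the mitochondrial median 0.14, against −0.03 over all named genes. The cytosolic median thus stood 0.31 above that of all genes on the Th1 array and lay 0.14 below it (−0.14) on the Th17 array, while the mitochondrial median stood above it on both, by 0.36 and 0.18. In the difference between the arrays the cytosolic median was −0.45 and the mitochondrial median −0.16, against 0.04 over all named genes. In RNA of many cells, fewer cells of a type and less of a message in each cell cannot be told apart. The distances between groups do not depend on where each array's 0 is placed.

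Placement of the 0 does decide the signs of the group medians. When each array was centred on a list of widely expressed control genes, the all-gene median moved by −0.25 on the Th1 array and 0.27 in the difference, the cytosolic Th1 median turned to −0.017 and the mitochondrial difference to 0.11. When each array was centred on its most repeated value, the all-gene median moved by 0.85 on the Th1 array, 0.43 on the Th17 array and −0.42 in the difference, and the cytosolic Th17 median turned to 0.26. Positive and negative below refer to the deposited scale, and groups are read against all named genes.

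The shifts were small for single genes and shared by most members of a group. Of the 74 cytosolic members 62 (83.8%) lay above 0 on the Th1 array, as did 68 of the 77 mitochondrial members (88.3%), against 42.6% of all named genes. On the Th17 array 55 cytosolic members (74.3%) lay below 0, against 53.7% of all named genes, while 56 mitochondrial members (72.7%) lay above it. In the difference 64 cytosolic (86.5%) and 54 mitochondrial members (70.1%) lay below 0, against 46.1% of all named genes. Under centring on the control genes, 39.2% of cytosolic and 54.5% of mitochondrial members lay above 0 on the Th1 array, against 23.2% of all named genes. In the difference 36.5% and 70.1% did, against 77.7% of all named genes.

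**Figure D1:**
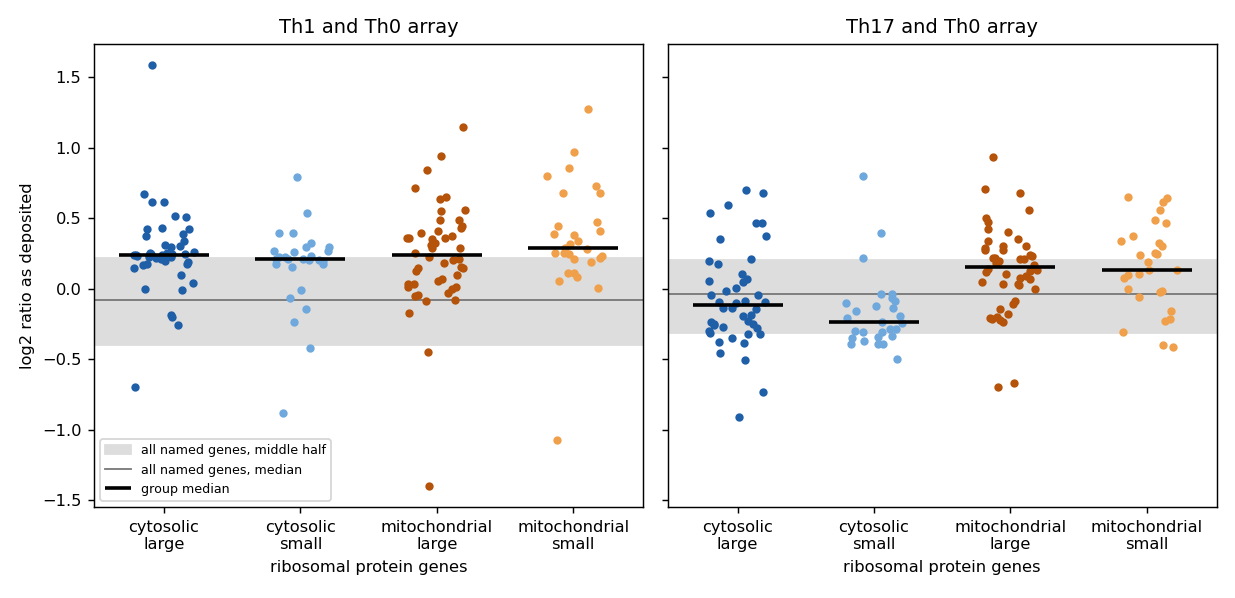
Log2 ratio as deposited of each of the 151 ribosomal protein genes (points) by ribosome and subunit, on the Th1 and Th0 array (left) and the Th17 and Th0 array (right). Black bars are group medians, the grey line is the median and the grey band the 25th to 75th percentile of all 17501 named genes. All 4 group medians lie above the grey line on the left (0.21 to 0.29 against −0.08), and on the right the cytosolic medians (−0.12 and −0.24) lie below it and the mitochondrial medians (0.16 and 0.14) above it.

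Few members were far from 0 as deposited, and the counts here depend on its placement. Centring on the most repeated value adds 0.85 to every Th1 ratio, of members and other genes alike. On the Th1 array 5 of 151 lay at least 2-fold to either side, against 10.2% of all named genes, and on the Th17 array 0 of 151 did, against 8.42%. In the difference 0 of 151 were 2-fold apart, against 8.14%. At 1.5-fold the Th1 array held 18 members on the positive side, against 9.49% of all named genes. They were 5 cytosolic (6.76%) and 13 mitochondrial members (16.9%). On the negative side it held 4, against 16.5%. On the Th17 array 10 members lay that far on the positive side, against 7.88% of all genes, and 4 on the negative side, against 13%. In the difference 17 members (11.3%) passed 1.5-fold on the negative side, against 9.33% of all genes. They were 11 cytosolic (14.9%) and 6 mitochondrial members (7.79%). On the positive side there were 3, all mitochondrial (3.9%), and 0% of cytosolic members, against 11.2%. The negative share over all members was thus near the background although the medians were displaced, and the cytosolic members were lopsided. The members formed a narrow, shifted group and not one with many large values.

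Cytosolic members in particular held nearly one ratio on the Th1 array. The 25th and 75th percentiles of the 74 genes were 0.18 and 0.30 on the Th1 array, a range of 0.13 log2 units against 0.61 over all named genes and 0.35 over mitochondrial members. On the Th17 array the range was 0.31 log2 units, from −0.31 to just above 0, against 0.52 over all named genes and 0.32 over mitochondrial members. Of all named genes 7.9% lay inside the cytosolic range on the Th1 array and 28.2% inside that on the Th17 array.

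**Figure D2:**
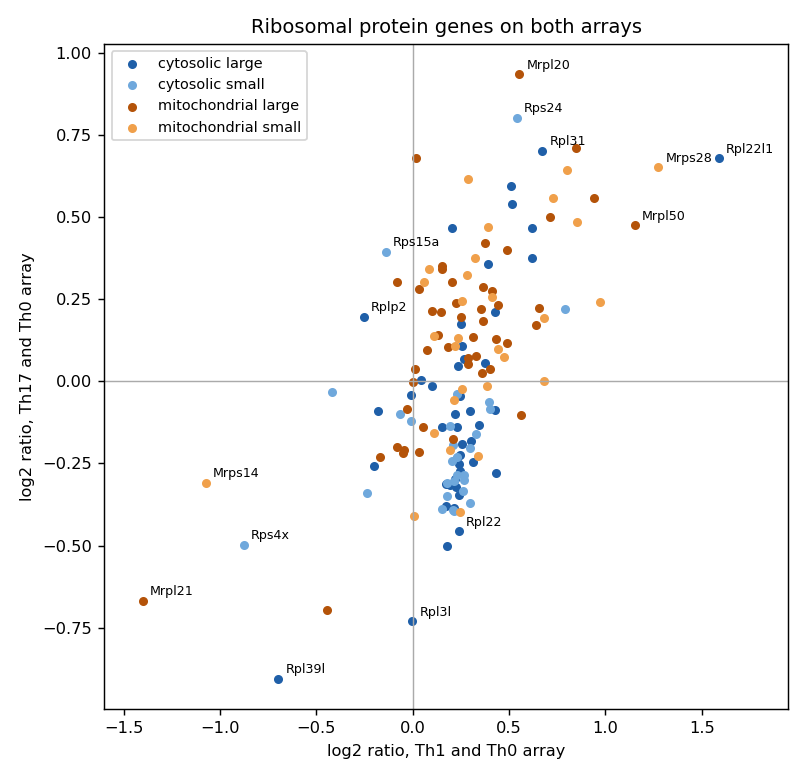
Each ribosomal protein gene by its log2 ratio on the Th1 and Th0 array (horizontal) and on the Th17 and Th0 array (vertical), coloured by ribosome and subunit, with lines at 0 of the deposited scale. Most cytosolic genes form a tight column near 0.23 on the horizontal axis that runs from about 0 down to Rpl13 at −0.50, while mitochondrial genes are spread, from Mrpl21 at −1.40 to Mrps28 at 1.27 on the horizontal axis.

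Some genes outside the member list held similar ratios. The 14 widely expressed control genes had medians of 0.25 on the Th1 array, −0.03 on the Th17 array and −0.22 in the difference, but they were spread: 3 of 14 lay inside the cytosolic range on the Th1 array, 6 on the Th17 array, and 2, Gapdh and Sdha, on both. Far from the cytosolic genes lay Tfrc at 0.81 and −1.06, Ppib at 0.36 and 0.68 and Polr2a at −0.20 and −0.03. Gapdh, a glycolytic enzyme used as a loading control, lay at 0.25 ± 0.08 (SD, n = 30 probes) on the Th1 array and −0.21 ± 0.12 on the Th17 array, and 20 and 23 of its 30 probes lay inside the cytosolic ranges. Ppia, a proline isomerase, lay at 0.24 and −0.38, and Tpt1, an abundant TOP message, at 0.23 and −0.28. Fau, whose product is cut into a ubiquitin-like protein and a small-subunit ribosomal protein, lay at 0.16 and −0.42. Actb, the actin gene, was apart at 0.51 ± 0.24 and 0.41 ± 0.36 (SD, n = 32 probes), with 6 and 4 probes inside the ranges. Some of these genes were named after their values were seen, and what those near the cytosolic ratio share was not tested, since the table holds no signal intensity.

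On each array the cytosolic small-subunit members had the narrowest 25th to 75th percentile of the 4 groups, 0.10 log2 units on the Th1 and 0.24 on the Th17 array, though in the difference the mitochondrial large subunit was narrower (0.27 against 0.31). Their median was 0.21 on the Th1 array, −0.24 on the Th17 array and −0.48 in the difference. Below 0 in the difference lay 24 of 28, against 46.1% of all named genes. Rps23, which helps to keep decoding accurate, lay at 0.30 on the Th1 and −0.37 on the Th17 array, a difference of −0.67. Rps7 lay at 0.21 and −0.39, and Rps25, known for its part in internal initiation, at 0.21 and −0.39. Rps15, whose tail reaches the decoding site, lay at 0.15 and −0.39.

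Rps6 is the protein phosphorylated by the S6 kinases downstream of mTOR. Its gene lay at 0.33 on the Th1 and −0.16 on the Th17 array, a difference of −0.49. Rps3, at the entry of the messenger channel, lay at 0.18 and −0.35, with a probe SD of 0.06 on each array (n = 2 probes). Rps9 was the most evenly measured, at 0.18 ± 0.02 and −0.31 ± 0.004 (SD, n = 3 probes), a difference of −0.48. All 3 were on opposite sides of the deposited 0 on the 2 arrays. Rps14, which is lost in the human 5q deletion syndrome, lay at 0.20 and −0.14. Rps27 lay at 0.23 and −0.04.

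Rps19, the gene most often mutated in Diamond-Blackfan anaemia, stood outside the main group at −0.07 and −0.10, with a probe SD of 0.12 on each array (n = 2 probes). Rps4x was the lowest small-subunit member on both arrays, at −0.88 and −0.50, on 1 probe. Rpsa, also known as the laminin receptor, lay at −0.42 and −0.03, but its 2 probes read 0.07 and −0.91 on the Th1 array, so the gene's place there is unsettled. Rps15a was on opposite sides of the arrays, at −0.14 and 0.39, and its difference of 0.53 was the highest of all cytosolic members. Rps24 was the highest on the Th17 array, at 0.54 and 0.80, with probe SDs of 0.48 and 0.58 (n = 2 probes). The 4 small-subunit members above 0 in the difference were Rps15a, Rpsa, Rps4x and Rps24.

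The large-subunit members held the same Th1 ratio and a wider Th17 range. Their median was 0.24 on the Th1 array, −0.12 on the Th17 array and −0.35 in the difference. Below 0 in the difference lay 40 of 46, against 46.1% of all named genes. Rpl5 and Rpl11 form a particle with 5S ribosomal RNA and restrain Mdm2 when ribosome assembly fails. They lay at 0.22 and −0.30 (Rpl5) and at 0.30 and −0.18 (Rpl11) on the Th1 and Th17 arrays. Rpl10, which joins the subunit last, lay at 0.23 and −0.14, and Rpl7 at 0.34 and −0.13. Rpl39, a small protein of the exit tunnel, lay at 0.22 and −0.32. The core protein Rpl3 was near 0 on both, at 0.05 and 0.005.

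Low on the Th17 array were Rpl13 at −0.50, Rpl22 at −0.46, Rpl24 at −0.38 and Rpl35 at −0.35, with Th1 ratios of 0.18, 0.24, 0.21 and 0.24. Rpl22 is the member with a known role in T cells, since mice without it fail to develop αβ T cells. Its difference was −0.69. Rpl36a lay at 0.43 and −0.28, a difference of −0.71.

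A smaller number of large-subunit members kept a positive ratio on both arrays. Rpl31 lay at 0.67 and 0.70, Rpl4, which lines the exit tunnel, at 0.52 and 0.54, and Rpl14 at 0.51 and 0.59. The 2 Rpl4 probes were close together, with SDs of 0.03 and 0.08. Rpl37a lay at 0.20 and 0.47, and Rpl29 at −0.18 and −0.09, values small enough for another placement of the 0 to turn the Th1 sign of the former and both signs of the latter.

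The stalk of the large subunit recruits the elongation factors and consists of Rplp0 as the base and copies of Rplp1 and Rplp2. Its 3 genes did not share a ratio. Rplp0 lay at 0.25 on the Th1 and 0.17 on the Th17 array, with probe SDs of 0.06 and 0.08 (n = 2 probes). Rplp1 lay at 0.25 and −0.23, with probe SDs of 0.02 and 0.04 (n = 2 probes). Rplp2 lay at −0.25 and 0.20 on 1 probe. The differences were −0.08, −0.47 and 0.45, so the stalk genes reached from the cytosolic median to near the highest cytosolic value. The pooled SD between probes of 1 gene was 0.24 on the Th1 and 0.31 on the Th17 array over the 20 cytosolic members with more than 1 probe, and with 1 probe the value for Rplp2 has no such check.

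Some members are copies that can take the place of a standard subunit, and several of them lay far from the other cytosolic genes. Rpl22l1, the paralog of Rpl22, lay at 1.59 on the Th1 and 0.68 on the Th17 array. It was the highest of all 151 members on the Th1 array and the lowest in the difference, at −0.91. Rpl22 itself lay at 0.24 and −0.46, so the pair was more than a log2 unit apart on both arrays while both differences were negative. Rps27l, which p53 is known to induce, lay at 0.79 and 0.22, against 0.23 and −0.04 for Rps27.

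Rpl39l, a paralog known from the testis, lay on the opposite side at −0.70 and −0.90, the lowest member on the Th17 array, against 0.22 and −0.32 for Rpl39. Rpl3l, the paralog used in striated muscle, lay at −0.001 and −0.73, against 0.05 and 0.005 for Rpl3. The other paralogs were close to their partners on the Th1 array and above them on the Th17 array. Rpl36al lay at 0.43 and 0.21 beside Rpl36a at 0.43 and −0.28, and Rpl7l1 at 0.26 and 0.11 beside Rpl7 at 0.34 and −0.13. Rps19bp1, which the symbol rule takes in, encodes a binding partner of Rps19 and no subunit, and lay at 0.39 and −0.06. Without these 7 genes the median over the remaining 144 members was 0.24 on the Th1 array and −0.25 in the difference. Each of the 7 rests on 1 probe except Rpl7l1, whose 2 probes had an SD of 0.53 on the Th1 array.

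Where a cytosolic gene had several probes, they often fell at different places. Rpl13a, which leaves the ribosome to silence inflammatory messages in myeloid cells, had 23 probes with means of 0.62 ± 0.15 and 0.37 ± 0.28 (SD, n = 23 probes). Of these probes 2 read 0.17 and 0.28 on the Th1 array and −0.42 and −0.44 on the Th17 array, while the other 21 were positive on both. Of the 23, 0 lay inside the 25th to 75th percentile of the cytosolic members on the Th17 array. Of the 3 Rpl38 probes, 1 read 0.24 and −0.29, and the others 0.83 and 0.99, and 0.80 and 0.70. Rpl17 read 0.22 and −0.24 on 1 probe and 0.56 and 0.95 on the other. For Rps18 the probes read 0.22 and −0.35, and −0.69 and −0.33. Probes of 1 gene differed in sign on an array for 31 of the 45 members with more than 1 probe. Such splits were found in both ribosomes: without them 60 of 74 cytosolic and 60 of 77 mitochondrial members remained. The share over all named genes was not computed. The pooled SD between cytosolic probes, 0.24 and 0.31, was below that over all named genes, 0.51 and 0.49. The genome holds many processed copies of cytosolic ribosomal protein genes with near-identical sequence. A probe for one of these genes may take signal from such copies, which was not tested.

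**Figure D3:**
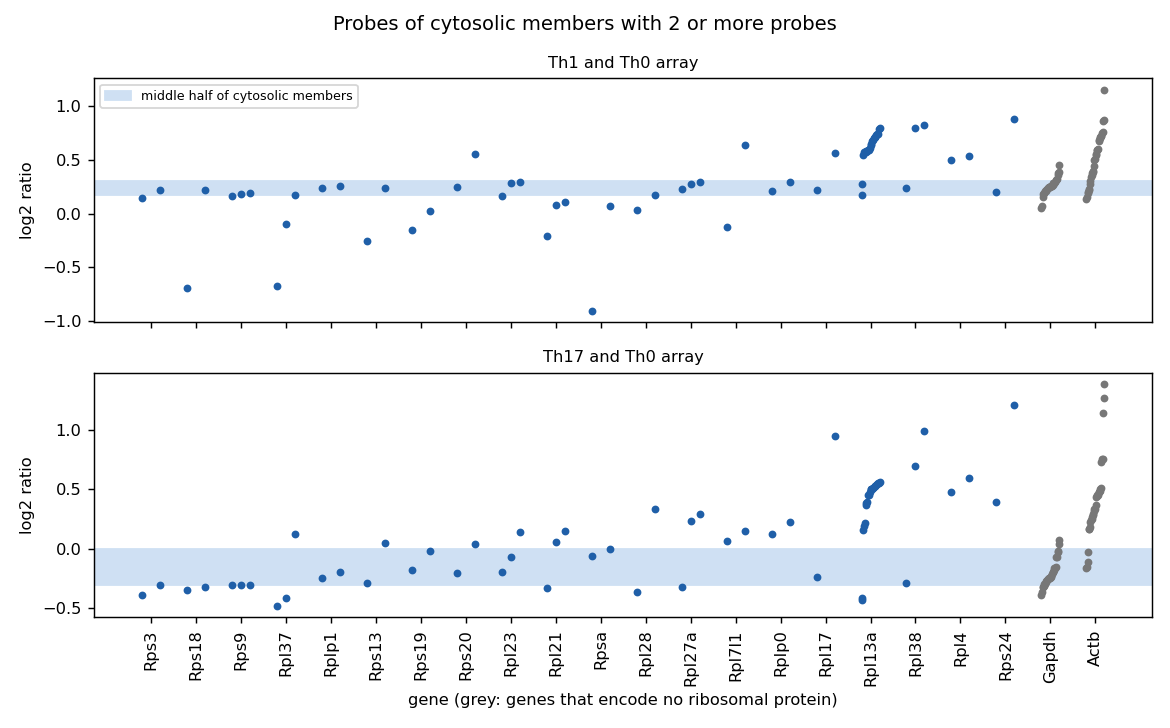
Log2 ratio of every probe of the 20 cytosolic members with more than 1 probe, on the Th1 and Th0 array (top) and the Th17 and Th0 array (bottom), with Gapdh and Actb in grey. The blue band is the 25th to 75th percentile of the 74 cytosolic members, 0.18 to 0.30 (top) and −0.31 to 0.0001 (bottom). Rps9 and Rplp1 hold nearly 1 value, whereas Rpl13a, Rpl17, Rpl38 and Rps24 reach above the band on both arrays.

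Mitochondrial ribosomal protein genes were more varied than cytosolic ones on the Th1 array, with a 25th to 75th percentile range of 0.35 against 0.13 log2 units. The ranges were close on the Th17 array (0.32 and 0.31), and in the difference the mitochondrial one was the smaller (0.37 against 0.40). Their large-subunit median was 0.24 on the Th1 array, 0.16 on the Th17 array and −0.13 in the difference, and their small-subunit median 0.29, 0.14 and −0.27. Of the small-subunit members 28 of 29 lay above the deposited 0 on the Th1 array, against 42.6% of all named genes, and Mrps14 was the exception.

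In the large subunit Mrpl50 was the highest member on the Th1 array, at 1.15, with 0.48 on the Th17 array. Mrpl13 lay at 0.94 ± 0.05 and 0.56 ± 0.03 (SD, n = 2 probes), and Mrpl42 at 0.85 and 0.71. Mrpl20 was the highest of all 151 members on the Th17 array, at 0.55 on the Th1 and 0.94 on the Th17 array. These 4 lay on the positive side of both arrays. Mrpl21 lay at −1.40, the lowest of all members on the Th1 array, and at −0.67 on the Th17 array, on 1 probe. Mrpl45, at the site where the mitochondrial ribosome meets the inner membrane, lay at −0.44 and −0.70.

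Mrpl12, the mitochondrial counterpart of the bacterial stalk protein, which also binds the mitochondrial RNA polymerase, lay at 0.43 ± 0.02 and 0.13 ± 0.15 (SD, n = 2 probes). Mrpl11, at the base of the stalk, lay at 0.15 and 0.35, and Mrpl28 at 0.33 and 0.08. On the deposited scale the differences of Mrpl12 and Mrpl11 had opposite signs, at −0.30 and 0.20, and Mrpl11 rests on 1 probe. Centred on the most repeated value they were −0.73 and −0.22, both negative. Mrpl37 was on opposite sides, at 0.56 and −0.10, and Mrpl17 lay at 0.64 and 0.17. The differences of Mrpl50, at −0.68, and Mrpl37, at −0.67, were the lowest of the large subunit. The highest were 0.73 for Mrpl21 and 0.67 for Mrpl33, whose 2 probes gave 0.49 and 0.84. Mrpl58, a former release factor built into the ribosome, lay at 0.03 and −0.22.

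In the small subunit Mrps28 lay at 1.27 and 0.65 and Mrps6 at 0.97 and 0.24. Mrps6 had the lowest difference of the mitochondrial members, −0.73. Mrps22, mutated in a human mitochondrial disease, lay at 0.68 and 0.001, a difference of −0.68. Mrps31 lay at 0.85 ± 0.29 and 0.49 ± 0.21 (SD, n = 3 probes). Mrps14 was on the other side at −1.07 and −0.31, and its difference of 0.77 was the highest of all 151 members. Mrps35 lay at 0.005 and −0.41.

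Mrps12, the counterpart of the bacterial decoding protein S12, lay at 0.28 ± 0.06 and 0.33 ± 0.05 (SD, n = 2 probes), a difference of 0.04 against −0.67 for its cytosolic relative Rps23. The paralogs Mrps18a, Mrps18b and Mrps18c, related to 1 bacterial protein, differed little in their gene values. They lay at 0.25, 0.22 and 0.08 on the Th1 array and at 0.24, 0.11 and 0.34 on the Th17 array. Mrps18a rests on 1 probe. The probe SDs were 0.44 and 0.21 for Mrps18b and 0.42 and 0.39 for Mrps18c (n = 2 probes each). Both of these genes had probes on opposite sides of 0 on the Th1 array. Mrps16 lay at 0.29 and 0.62. The symbols do not always match the present structure. Mrps18a and Mrps30, at 0.34 and −0.23, are now placed in the large subunit, and Mrps36, at 0.80 and 0.64, is now counted as a part of 2-oxoglutarate dehydrogenase.

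On the Th17 array and in the difference, though not on the Th1 array, the distance between the ribosomes was larger than that between their subunits. The cytosolic median differed from the mitochondrial one by −0.05 on the Th1 array, −0.31 on the Th17 array and −0.29 in the difference. Within the cytosolic ribosome large minus small subunit gave 0.03, 0.12 and 0.14. Within the mitochondrial ribosome it gave −0.05, 0.02 and 0.14. On the Th17 array and in the difference, the cytosolic and mitochondrial medians kept their order under each alternative able to change it except 1. Leaving out every value shared with another probe left 14 members and turned the distances to 0.25 and 0.33. The other centrings could not change the order, since they add 1 constant per array. Nor could leaving out values held by 15 or more probes, since 0 member probes held such a value. The distance is about as large as the pooled SD between probes of 1 gene, 0.32 on the Th1 and 0.31 on the Th17 array over the 45 members with more than 1 probe, so it describes the groups and not any pair of genes.

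**Figure D4:**
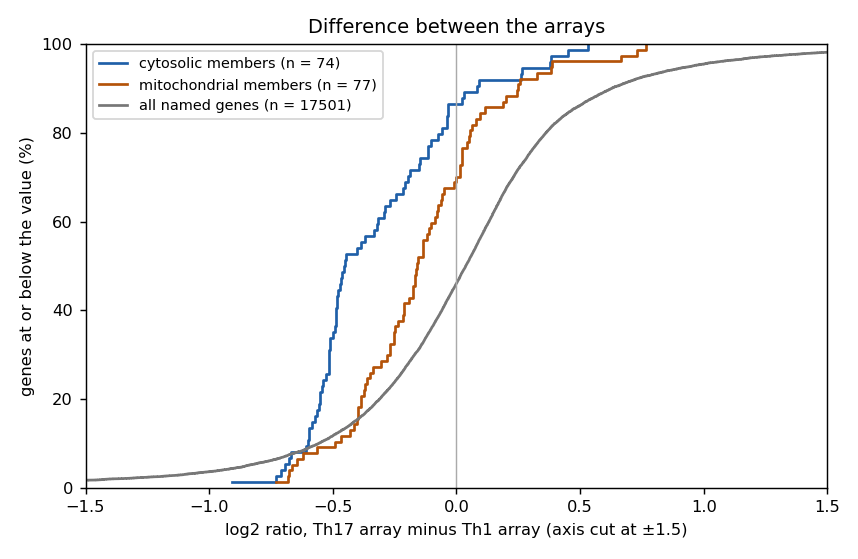
Share of genes (percent) at or below each difference between the arrays, for the 74 cytosolic and 77 mitochondrial members and all 17501 named genes, in log2 units of the deposited scale. The cytosolic curve lies to the left of the mitochondrial one over most of its range (medians −0.45 and −0.16) and is steep near −0.5, and from the medians upwards both lie left of all genes (median 0.04). In the lower tail the order turns, since 9.33% of all genes but 7.79% of mitochondrial members pass 1.5-fold on the negative side. Centring on the control genes moves all 3 curves to the right by 0.27.

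The promoter windows of members were searched for pyrimidine runs and short motifs. Of the 151 members 129 matched a gene in a RefSeq table of promoters on build GRCm38.p6, with 146 windows of 300 bases from 250 before to 50 after the start. A run of at least 5 pyrimidines that begins with C within 5 bases of the start stood in 37.5% of cytosolic, 23% of mitochondrial and 18.3% of all 32851 windows. The annotated first base itself was a C followed by at least 4 more pyrimidines in 13 of 72 cytosolic windows (18.1%), 0 of 74 mitochondrial ones and 2.51% of all, whether or not the run also reached upstream. The cytosolic difference had a median of −0.45 over the 26 genes with the run near the start and −0.45 over the 35 without. For the 13 genes whose first base and the next 4 were such a run it was −0.27, and for the other 48 it was −0.46. Of the printed start regions, Rpl35 at −0.59 and Rps15a at 0.53 both start in such a run. The split into 13 and 48 genes follows the annotated first base and does not part TOP from other messages. Among the 48 were Rpl27a and Rpl7a, whose runs of 20 and 12 pyrimidines cross an annotated start at a T. Rpl13a was another, with a run of 14 from the 3rd base. How exact the annotated starts are was not tested.

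CCGGAAG, letters bound by ETS factors such as GABP, stood on either strand in 36.1% of cytosolic and 35.1% of mitochondrial windows, against 8.86% of all. AAGATGGC, the core of the YY1 site, which can share its first 3 letters with the last 3 of CCGGAAG, stood in 11.1% and 16.2%, against 2.75%. The E-box CACGTG, read by Myc, stood in 8.33% and 9.46%, against 7.15%, and TATAAA in 9.72% and 6.76%, against 13.6%. CGCATGCG, the core of the NRF1 site, stood in 4.17% of cytosolic and 9.46% of mitochondrial windows, against 1.87%. The median difference over cytosolic genes was −0.46 with CCGGAAG (25 genes) and −0.43 without it (36 genes), and over mitochondrial genes −0.04 (26 genes) and −0.17 (42 genes). With CACGTG it was −0.24 over 5 cytosolic genes against −0.46 over the other 56, and 0.25 over 5 mitochondrial genes against −0.15 over the other 63. With AAGATGGC it was −0.26 over 6 cytosolic genes against −0.46 over 55, and −0.08 over 12 mitochondrial genes against −0.17 over 56. TATAAA gave −0.55 over 7 cytosolic genes against −0.39 over 54, and −0.10 over 5 mitochondrial genes against −0.16 over 63. CGCATGCG gave −0.51 over 3 cytosolic genes against −0.45 over 58, and −0.11 over 7 mitochondrial genes against −0.16 over 61. Most of these sets with a motif are small, and none of the splits was tested. A match of letters is a description of the window and not a bound site.

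Genes that build ribosomes lay on the positive side of the Th1 array, also after centring on the control genes (median 0.24). Of 60 listed ribosome biogenesis factors 58 were measured, with medians of 0.49 on the Th1 array, 0.17 on the Th17 array and −0.34 in the difference. On the Th1 array 20 lay at least 1.5-fold on the positive and 1 on the negative side, against 9.49% and 16.5% of all named genes. The biogenesis factor Rpf2 lay at 1.38 and 1.02, and Npm1, the nucleolar protein nucleophosmin, at 1.34 ± 0.18 and 0.63 ± 0.03 (SD, n = 2 probes). Ncl, nucleolin, lay at 0.78 and 0.10. Wdr12, a partner of Pes1 and Bop1 in large-subunit assembly, was the 1 factor that far on the negative side, at −0.61 on the Th1 and 0.22 on the Th17 array. RNA polymerase I, which transcribes ribosomal RNA, and its factors had medians of 0.20, 0.12 and −0.20 over 12 genes, with 2 at least 1.5-fold positive on the Th1 array and 0 on the negative side. Centring on the control genes turned the polymerase medians to −0.05 on the Th1 array and 0.07 in the difference, and moved the biogenesis difference to −0.07.

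Factors that drive the cytosolic ribosome lay on the positive side of the Th1 array too. Of 35 initiation factors and regulators all 35 lay above 0 on the Th1 array, against 42.6% of all named genes. Their medians were 0.42, 0.25 and −0.19. On the Th1 array 11 were at least 1.5-fold positive, against 9.49% of all named genes. Eif1a, which helps to select the start codon, lay at 1.19 and 1.02. Eif4ebp1, the mTOR-controlled brake on cap binding, lay at 0.82 and −0.23, the 1 gene of the list 2-fold apart in the difference (−1.04), though its 2 probes had SDs of 0.66 and 1.13. The 13 elongation and termination factors had medians of 0.52, 0.30 and −0.22, with Eef1g at 0.58 and −0.34. Under centring on the control genes the median differences of the initiation and elongation lists turned to 0.08 and 0.06. Another 9 genes known for TOP messages or ubiquitin fusions had medians of 0.38, −0.08 and −0.58. All 9 lay below 0 in the difference, against 46.1% of all named genes, and 4 of them at least 1.5-fold, against 9.33%. These 4 were Hnrnpa1 at −0.85, Nap1l1 at −0.77, and the host genes of small nucleolar RNAs Gas5 at −0.72 and Snhg1 at −0.66.

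Genes around the mitochondrial ribosome were covered by 2 lists. The 19 mitochondrial translation factors had medians of 0.43 on the Th1 array, 0.05 on the Th17 array and −0.25 in the difference. On the Th1 array 4 were at least 1.5-fold positive, against 9.49% of all named genes. Gfm1, the elongation factor that moves the ribosome along, lay at 0.76 and 0.14, and Qrsl1, a subunit of the enzyme that makes glutaminyl-tRNA, at 0.64 and −0.20. The 17 ribosomal proteins under other symbols and assembly factors had medians of 0.15, 0.13 and −0.08. Under centring on the control genes the differences of these lists turned to 0.03 and 0.19, and the Th1 median of the latter to −0.10. Ptcd3, a small-subunit protein, lay at 1.0 and 0.40, Chchd1 at 0.78 and 0.70, and Dap3 at −0.01 and −0.35.

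**Figure D5:**
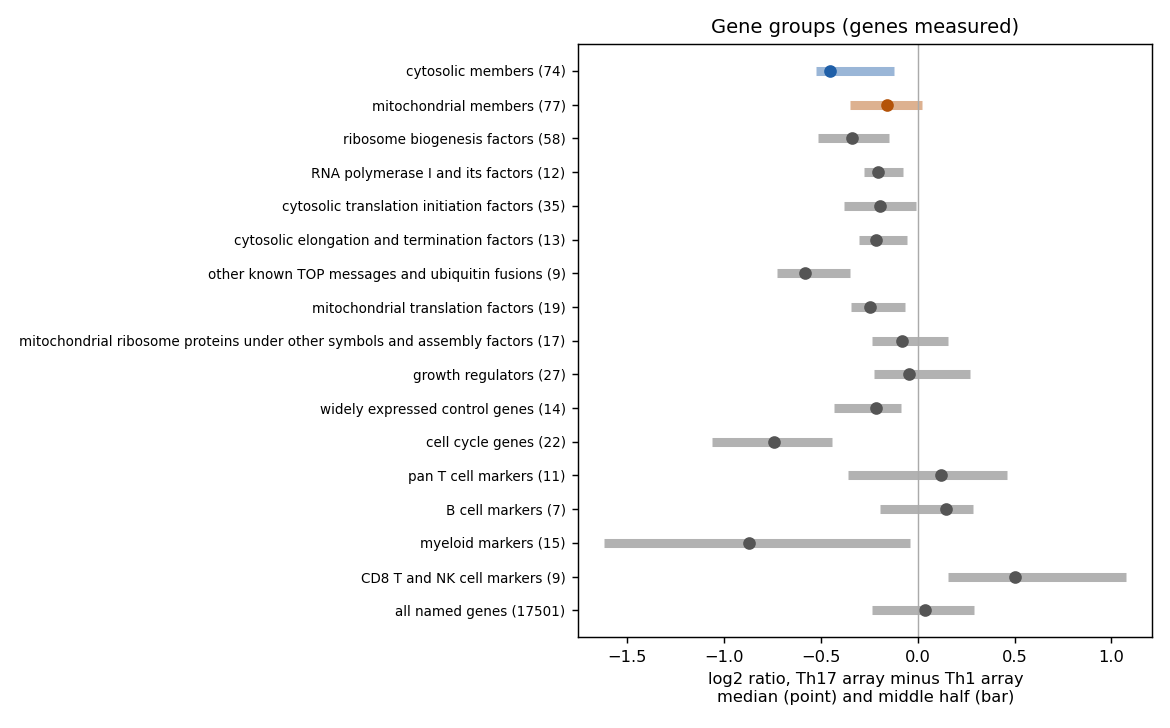
Difference between the arrays (Th17 array minus Th1 array, log2, deposited scale) for the cytosolic and mitochondrial members, the other gene lists and all named genes, as median (point) and 25th to 75th percentile (bar), with the number of genes measured in brackets. The cytosolic members (−0.45) lie between the other TOP messages (−0.58) and the biogenesis factors (−0.34), and the cell cycle genes (−0.74) and myeloid markers (−0.87) lie further left. All genes sit at 0.04, and centring on the control genes moves every point to the right by 0.27.

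Genes of cell division lay on the same side of the difference as the members. The 22 cell cycle genes had medians of 0.26 on the Th1 array, −0.31 on the Th17 array and −0.74 in the difference. In the difference 13 lay at least 1.5-fold on the negative side and 1 on the positive side, against 9.33% and 11.2% of all named genes. Ccna2, cyclin A, lay at −1.31 and the replication gene Mcm3 at −1.20. Centring on the control genes left the difference at −0.47. The part of cell division in the ribosomal protein ratios was not tested.

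Most myeloid markers lay above 0 on each array. Of 15 myeloid markers all 15 lay above 0 on the Th1 array (range 0.03 to 2.98, median 1.57), against 42.6% of all named genes. At least 2-fold lay 12 of them, against 10.2% of all named genes to either side. On the Th17 array 10 of 15 lay above 0 (range −2.04 to 2.98, median 0.79), against 46.3% of all named genes. The median difference was −0.87. The 11 pan T cell markers had medians of −0.69 and −1.0, and the 7 B cell markers −0.14 and 0.14. Medians of the 9 CD8 T and NK cell markers were −0.13 and −0.16, with ranges of −2.49 to 3.22 and −2.17 to 3.72. Ratios give no levels, so the labelled cell type could not be checked against its markers, and the part of the cell mixture in the ribosomal protein ratios was not tested.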

How the data were processed

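Per the labels' protocols, column-purified total RNA (500 ng) was amplified, labelled with Cy5 (polarized) or Cy3 (Th0) and hybridised to 2 arrays, 1 per comparison. The deposited table gave 1 value per probe and array for 36547 probes, taken as log2 ratios from the values themselves. How the authors scanned and normalised the arrays is not given in the sources used here. Probes naming 1 gene (26926) were averaged per gene, and 203 with several genes and 9418 unnamed here were left out of gene values. The platform annotation can be old. Symbols of 150 of 151 members matched a current RefSeq list, and Rpl5 kept the platform's name.

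Groups were described by medians, percentiles and counts past 1.5-fold and 2-fold, with Python 3.11.15, pandas 2.3.3, numpy 2.4.6 and matplotlib 3.10.9, checked on simulated data. Genes of 1 array are not replicates, so no test was made. Members, lists and the naming rule were chosen with earlier results of these data known. The rule named, per subunit, the 3 highest and 3 lowest members on each array and in the difference (without those whose probes differ in sign), all members past 2-fold, a panel of known genes, and up to 4 genes of each list. Genes named beyond it, among them Rpl38, Rpl17 and Rps18, were chosen after their values were seen. Alternatives were 3 other centrings, the median of probes, genes with 1 probe, probes as the unit, and leaving out paralogs, genes with split probes or repeated values. Leaving out values held by 15 or more probes was added after seeing the data.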

Additional observations from a re-analysis of the deposited data

How the results depend on the processing

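Limits first: 1 array per comparison, no swapped dyes, an unstated numerator and no signal intensities, so depth behind a ratio is unknown and no value has an error between samples. No paired analysis was possible because each group held 1 array. A first count covers the medians of all members and of each ribosome, the distance between the ribosomes and the shares above 0. Of these, 150 stayed within a tolerance under an alternative without a change of sign, 14 moved by more than it and 16 reversed. A second covers the subunit medians and distances, counts past 1.5-fold and 2-fold, and single genes past 2-fold: 289 stayed, 63 moved and 18 reversed. For medians, distances and single genes the tolerance was the pooled SD between probes of 1 gene over all named genes. It was 0.51 (Th1), 0.49 (Th17) and 0.52 (difference), wider than the distances between the ribosomes. Shares above 0 and counts were allowed a 1.5-fold change. Centring on the most repeated value moved medians by 0.43 (Th17) and −0.42 (difference), inside this tolerance.

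Centring on the array median turned the Th17 median of all members to 0.043 and lowered the mitochondrial share above 0 in the difference to 18.2%. Centring on the control genes turned the medians of all members to −0.0082 (Th1), 0.023 (Th17) and 0.024 (difference). It turned the Th1 medians of cytosolic (−0.017), cytosolic large (−0.0084), cytosolic small (−0.035) and mitochondrial large members (−0.0089), and the differences of mitochondrial (0.11), mitochondrial large (0.14) and mitochondrial small members (0.0041). The shares above 0 became 39.2% (cytosolic, Th1), 36.5% (cytosolic, difference), 54.5% (mitochondrial, Th1) and 70.1% (mitochondrial, difference). Centring on the most repeated value moved the Th1 medians to 1.09 (all), 1.08 (cytosolic) and 1.13 (mitochondrial). It turned those of the Th17 array to 0.42 (all), 0.26 (cytosolic), 0.31 (cytosolic large) and 0.19 (cytosolic small), and moved the shares above 0 to 93.2% (cytosolic, Th17), 2.7% (cytosolic, difference) and 3.9% (mitochondrial, difference). The construction of a centring explains these: it adds 1 constant per array.

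Leaving out every value shared with another probe kept 5.94% of the probes naming 1 gene, and 14 members (6 cytosolic). It moved the median of all named genes to 0.65 (Th1), 0.57 (Th17) and −0.090 (difference). It turned the Th17 medians to 0.65 (all members), 0.82 (cytosolic), 0.70 (cytosolic large) and 1.22 (cytosolic small). The differences turned to 0.12, 0.081 and 0.33 for the latter 3. This filter moved the cytosolic shares above 0 to 100% (Th17) and 83.3% (difference), and turned cytosolic minus mitochondrial to 0.25 (Th17) and 0.33 (difference). Cytosolic large minus small turned to −0.21, −0.51 and −0.25 (Th1, Th17, difference) and mitochondrial large minus small to −0.065 (Th17). Leaving out values held by 15 or more probes, chosen after seeing the data, kept all 151 members. On each array 0 member probes held such a value, so this setting could change no member result. Its results are counted among the 150 and the 289 that stayed within the tolerance. Also among the 150 are the distances between the ribosomes under the 3 other centrings, which a constant cannot change.

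The Th17 median of all members, −0.0024, also turned to 0.026 with the median of probes, 0.0032 without members whose probes differ in sign and 0.075 with probes as the unit. Probes as the unit also gave 43% of cytosolic probes above 0 on the Th17 array and a cytosolic large median of 0.060 there. Mitochondrial large minus small on the Th17 array turned to −0.071 with 1-probe genes and −0.074 without members whose probes differ in sign. For these the cause was not tested.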

Other observations

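The kinases that phosphorylate Rps6 and related targets share its symbol and were left out of the members. Rps6ka3 lay at 0.06 on the Th1 and 0.60 on the Th17 array, Rps6ka5 at −0.08 and 0.15, and Rps6kb2 at −0.17 and −0.06. The list of 27 growth regulators that holds them had medians of 0.06 on the Th1 array, 0.05 on the Th17 array and −0.04 in the difference. Myc, a known driver of ribosome production, lay at −0.87 and −0.55, with probe SDs of 0.69 and 0.35 (n = 2 probes), while its relative Mycn lay at 1.76 and 2.70 on 1 probe. Ppargc1a, a coactivator of mitochondrial genes, lay at −2.26 and −1.27, but its probes were far apart, with SDs of 2.05 and 1.05 (n = 2 probes). Mtor lay at −0.24 and −0.11, with probe SDs of 0.75 and 0.04 (n = 2 probes). Larp1, which binds TOP messages, lay at −0.04 and −0.11, with probe SDs of 0.29 and 0.22 (n = 3 probes).

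Another 4 probes carried a member's symbol together with a second gene and entered no gene value. A probe for Rpl12 and Snora65 read 0.20 on the Th1 and −0.37 on the Th17 array. Probes for Rpl19 and Rpl36, each with a pseudogene, read 0.23 and −0.23, and 0.32 and −0.20. These 3 lay in the range of most cytosolic members on the Th1 array or just above it. A probe for Mrpl41 and Dph7 read −0.69 and 0.05.

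Within mitochondrial genes, probes could also lie far apart. Of the 3 Mrps10 probes, 1 read −0.91 on the Th1 and −0.87 on the Th17 array, and the others 0.73 and 0.10, and 0.76 and 0.14. Mrpl47 had 1 probe at −0.79 and −0.01 beside 2 at 0.73 and 0.43, and 0.68 and 0.50.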
